A study of Mus musculus with 12 samples.

Results

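The measurements below concern 8 genes of intestinal iron absorption in sorted gut epithelium: the surface reductase Cybrd1, the iron importer Slc11a2, the iron exporter Slc40a1, the ferroxidase Heph, the ferritin chains Fth1 and Ftl1, the transferrin receptor Tfrc and the transcription factor subunit Epas1. They were taken as the rows of the count table whose gene name was one of these symbols. All 8 were found among the 15855 genes of the table, and all 8 passed the filter on low counts that left 14462 genes for testing. RNA came from live EpCAM+ cells, EpCAM being a surface protein of epithelia, which had been sorted from the small intestine of male C57BL6/J mice aged 8 to 12 weeks. The mice had undergone permanent middle cerebral artery occlusion (pMCAO, n = 5), a model of ischaemic stroke in which a filament closes a brain artery, or the same surgery without the occlusion (sham, n = 7), and cells were taken after 24 h. The study's text counts a further pMCAO sample, which was not analysed here. The labels name no transgene and no drug treatment for either group. The cells came from the whole length of the organ after a short stretch at each end had been discarded, so duodenum, jejunum and ileum were not separated and a level in the duodenum alone was not measured. The comparison asked which of these genes differed in the gut epithelium of post-stroke and sham-operated mice.

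Dietary ferric iron is reduced at the brush border of the duodenal enterocyte, enters the cell through the divalent metal transporter, and leaves it across the basolateral membrane through ferroportin, where hephaestin oxidises it for loading onto transferrin. Iron that is not exported is stored in ferritin. Iron regulatory proteins bind hairpins called iron-responsive elements (IREs) when the cell is short of iron, which blocks translation from hairpins ahead of a coding sequence and stabilises messages with hairpins behind it, while hypoxia-inducible factor 2 (HIF-2) drives transcription of the absorption genes in iron deficiency.

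The hairpin loops of these messages that matched a strict pattern are printed as a description. Transcripts of GENCODE M21 (build GRCm38) were searched on the sense strand for a C, 5 stem bases, the loop CAGTGN with any base but G at its end, and 5 bases that pair with the stem, a G opposite a T being allowed. The capitals mark the 6-base loop and each stretch holds 17 bases. Fth1 and Ftl1 each held 1 match in the 5′ UTR, at chr19:9982738-9982754 on the plus strand and chr7:45459785-45459801 on the minus strand. Slc40a1 held 1 in the 5′ UTR, at chr1:45925471-45925487 on the minus strand. Tfrc held 4 in the 3′ UTR on the plus strand of chromosome 16, which start at 32631225, 32631604, 32631669 and 32631716.
Fth1: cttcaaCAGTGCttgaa
Ftl1: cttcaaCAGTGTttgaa
Slc40a1: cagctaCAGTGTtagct
Tfrc match 1: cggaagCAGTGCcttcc
Tfrc match 2: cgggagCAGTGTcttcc
Tfrc match 3: cggagaCAGTGAtctcc
Tfrc match 4: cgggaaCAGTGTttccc

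The loops of the ferritin chains shared the same stem and differed in the last loop base, and the 4 stems of Tfrc differed from one another. The match stood in 5 of 9 annotated transcripts of Fth1, 2 of 6 of Ftl1, 3 of 8 of Slc40a1 and 2 of 7 of Tfrc, some of them non-coding. Of 12617 protein-coding genes in the table, 21 (0.166%) held this pattern in a 5′ UTR and 82 (0.65%) in a 3′ UTR. Cybrd1, Slc11a2, Heph and Epas1 held no match, which says only that these letters are not in the annotated transcripts. The pattern needs all 5 stem bases to pair, so a hairpin of another form would be missed, and a match does not sort the genes by iron control. The genes were chosen for their known part in iron absorption, so the number with a match is a description.

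Total counts per library ranged from 7418730 to 31925579. The mean was 1.34e+07 ± 7.13e+06 (SD, n = 7) for sham libraries and higher, at 2.22e+07 ± 8.72e+06 (SD, n = 5), for pMCAO libraries. This difference did not pass a two-sided exact permutation test (p = 0.0934), which does not show that the depths were equal. Mitochondrial ribosomal RNA took 14.6% to 54.5% of the counts. The study's methods corrected for the day of tissue collection, which the labels do not give. An earlier analysis of these data had placed the libraries in 4 blocks of consecutive library numbers, and these blocks were used beside the fit on the group alone. Its cuts were chosen to bring a fit close to the authors' comparison of these libraries. No SE or p-value with blocks is therefore independent of that comparison. Block 1 (sham replicates 1, 2 and 3 and pMCAO replicate 1) stood apart from the rest on the first principal component (40.5% of the variance) and had 13386 to 14712 genes detected, against 15343 to 15766 in the other libraries. Block 2 held sham replicates 4 and 5 and pMCAO replicates 2 and 3, block 3 held sham replicate 6 and pMCAO replicates 4 and 5, and block 4 held sham replicate 7 alone, which adds nothing to the group estimate once blocks are fitted.

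Levels are CPM, the counts of a gene scaled to a common library total with TMM factors, and differences are log2 fold changes of pMCAO over sham from limma-voom with their standard error (SE). A gene was called when its log2 fold change was 1 or more in size and its p, adjusted by Benjamini-Hochberg across the genes tested, did not exceed 0.05. On the group alone 0 of the 8 genes were called, as were 0 of 14462 genes (0%). With library blocks 0 of the 8 were called, against 47 of all genes (0.325%). At an unadjusted p under 0.05, 3 of the 8 genes passed on the group alone (8.43% of all genes) and the same 3 with blocks (12.7% of all genes): Cybrd1, which was lower in pMCAO, and Tfrc and Epas1, which were higher. Cybrd1 passed the filter on low counts mainly through its sham libraries, so its place among the 3 is not read against these shares. For 0 of the 8 genes did all pMCAO libraries lie above all sham libraries, which held for 0.311% of all genes.

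**Figure D1:**
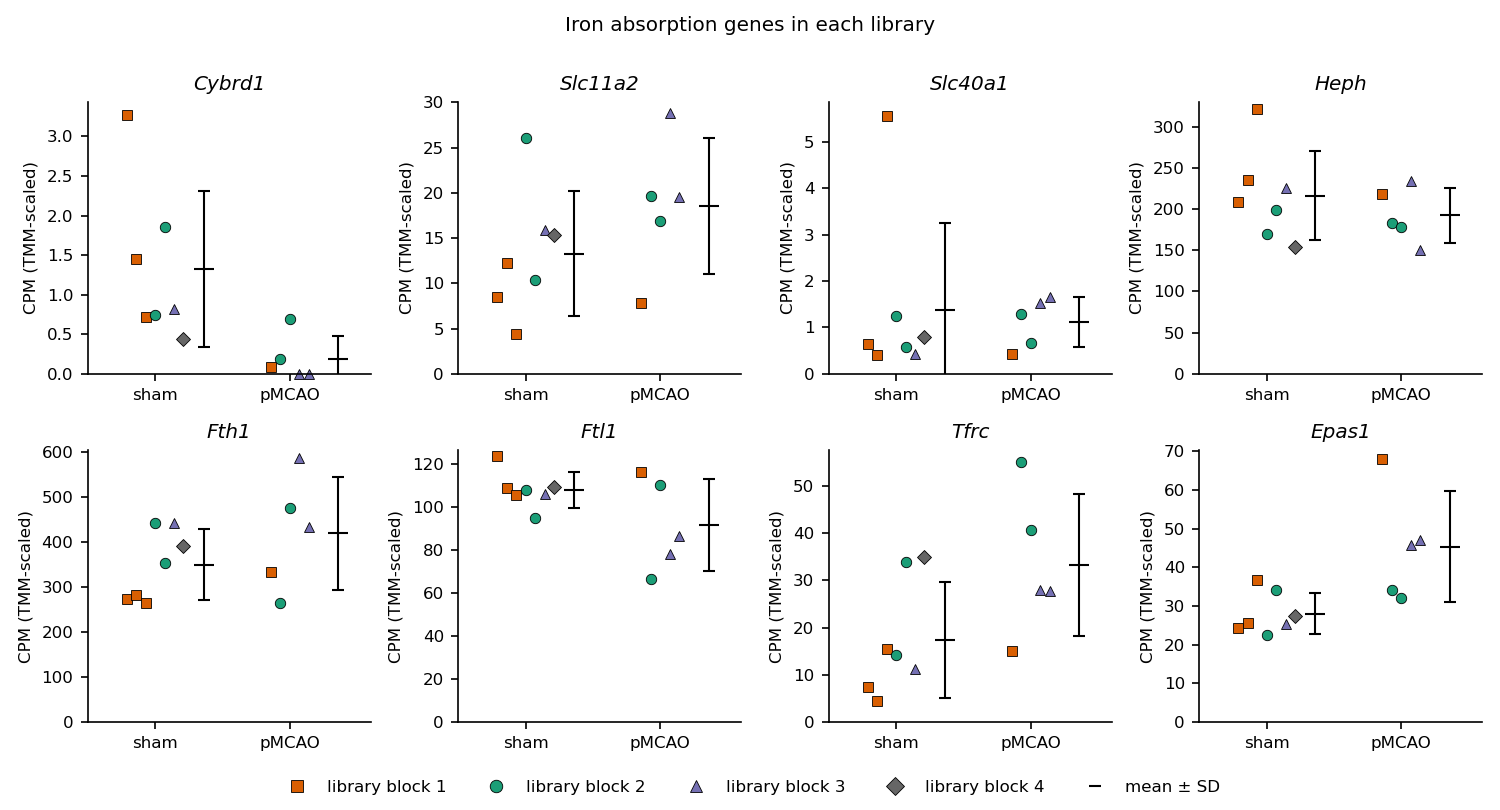
Level of each of the 8 genes in TMM-scaled CPM on linear axes from 0, with a point for each of the 7 sham and 5 pMCAO libraries, marked by library block; bars give the mean ± SD and are cut at 0. Cybrd1 lies between 0 and 0.692 CPM in pMCAO and between 0.437 and 3.27 in sham, whereas Tfrc and Epas1 lie higher in pMCAO with some overlap of the groups.

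Cybrd1 (ENSMUSG00000027015) encodes duodenal cytochrome b, the reductase that turns ferric into ferrous iron at the brush border. The gene lies on chromosome 2 from 71117923 to 71142926 on the plus strand. It was scarcely detected: the sham libraries ranged from 3 to 41 counts, and pMCAO replicates 1 to 5 held 1, 8, 30, 0 and 0. In scaled values the sham libraries ranged from 0.437 to 3.27 CPM with a median of 0.820, and the pMCAO libraries were at 0.0854, 0.187, 0.692, 0 and 0 CPM. The groups overlapped only through pMCAO replicate 3, which lay above sham replicate 7. The means were 1.33 ± 0.984 CPM (SD, n = 7) for sham libraries and 0.193 ± 0.289 CPM (SD, n = 5) for pMCAO libraries, with a log2 fold change of −3.16 (SE 0.95, unadjusted p = 0.00430, adjusted p = 0.357). With library blocks it was −2.97 (SE 0.84, unadjusted p = 0.00269, adjusted p = 0.145), and the differences within blocks 1, 2 and 3 were −3.12, −1.42 and −3.18. A floor of 3 counts equalled 0.0692 to 0.724 CPM in these libraries, and 4 of the 12 libraries were at or below it, so the size of the change depends on how counts near 0 are treated. Its transcript also shares stretches of up to 211 bases, at 95% identity or more, with 323 other genes, and whether reads there were assigned to Cybrd1 was not tested.

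Slc11a2 (ENSMUSG00000023030) encodes the divalent metal transporter DMT1, which carries ferrous iron into the enterocyte. Its position is chromosome 15 from 100387898 to 100425072 on the minus strand, and an exon overlaps Gm5475 on the other strand. The sham libraries ranged from 4.34 to 26.1 CPM with a median of 12.2, and pMCAO replicates 1 to 5 were at 7.86, 19.6, 16.9, 28.8 and 19.5. The groups overlapped widely, and the lowest library of each group belonged to block 1. The log2 fold change of 0.45 (SE 0.33) did not pass the test (unadjusted p = 0.184, adjusted p = 0.705), nor did the value of 0.36 (SE 0.25) with blocks (unadjusted p = 0.161, adjusted p = 0.584). Within blocks 1, 2 and 3 the differences were 0.032, 0.14 and 0.58.

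Slc40a1 (ENSMUSG00000025993) encodes ferroportin, the only iron exporter known in mammals. On the minus strand of chromosome 1 it spans 45908068 to 45926523. Its counts were low, with 2 to 23 in the sham libraries and 5, 55, 29, 19 and 44 in pMCAO replicates 1 to 5. The sham libraries ranged from 0.415 to 5.55 CPM with a median of 0.637, and the pMCAO libraries were at 0.427, 1.29, 0.669, 1.52 and 1.66. Sham replicate 3 alone lay above all pMCAO libraries, and the other sham libraries lay within or below their range. The mean was 1.38 ± 1.86 CPM (SD, n = 7) for sham libraries and 1.11 ± 0.539 CPM (SD, n = 5) for pMCAO libraries, whereas the fitted log2 fold change was 0.50 (SE 0.59, unadjusted p = 0.410, adjusted p = 0.832), so the mean level and the fit differed in sign. With blocks the value was 0.56 (SE 0.68, unadjusted p = 0.424, adjusted p = 0.778), and within blocks 1, 2 and 3 the differences were −1.29, 0.12 and 1.65. No direction can be given, since the sign also turned with the tool used, to −0.23 with edgeR and −0.25 with DESeq2.

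Heph (ENSMUSG00000031209) encodes hephaestin, the copper ferroxidase that works beside ferroportin. The gene lies on chromosome X from 96455359 to 96574485 on the plus strand, and an exon overlaps Hsf3 on the other strand. It was abundant, from 155 to 321 CPM with a median of 209 in the sham libraries, and at 218, 184, 178, 234 and 150 CPM in pMCAO replicates 1 to 5. The pMCAO values lay almost wholly within the sham range. The log2 fold change was −0.14 (SE 0.20, unadjusted p = 0.496, adjusted p = 0.867) and −0.15 with blocks (SE 0.15, unadjusted p = 0.342, adjusted p = 0.731). Within blocks 1, 2 and 3 it was −0.20, −0.024 and −0.27.

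Fth1 (ENSMUSG00000024661) encodes the ferritin heavy chain, whose ferroxidase centre oxidises iron for storage. Its position is chromosome 19 from 9980598 to 9985098 on the plus strand. The sham libraries ranged from 265 to 443 CPM with a median of 352, and pMCAO replicates 1 to 5 were at 334, 264, 477, 588 and 433. The highest level was in pMCAO replicate 4 and the lowest in pMCAO replicate 2, so the pMCAO group enclosed the sham group. The log2 fold change of 0.26 (SE 0.22, unadjusted p = 0.262, adjusted p = 0.754) was 0.073 with blocks (SE 0.17, unadjusted p = 0.668, adjusted p = 0.901). The 3 sham libraries of block 1 were the 3 lowest of the sham group, and within blocks 1, 2 and 3 the differences were 0.29, −0.16 and 0.19.

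Ftl1 (ENSMUSG00000050708) encodes the ferritin light chain, which helps to form the mineral core. The gene lies on chromosome 7 from 45457944 to 45459884 on the minus strand, where exons overlap Gm10252 on the other strand and Gm22133 on the same strand. The sham libraries were close together, from 94.96 to 123 CPM with a median of 108, whereas pMCAO replicates 1 to 5 were spread over 116, 66.5, 110, 78.0 and 86.3. Replicates 2, 4 and 5 lay below every sham library and replicates 1 and 3 lay within the sham range. The log2 fold change was −0.27 (SE 0.17, unadjusted p = 0.137, adjusted p = 0.671) and −0.20 with blocks (SE 0.16, unadjusted p = 0.228, adjusted p = 0.643), with differences of 0.052, −0.24 and −0.37 within blocks 1, 2 and 3. The assignment of Ftl1 reads is uncertain, since 10 genes shared a stretch of at least 300 bases at 90% identity or more. Of these 10, 2 had a row in the table used here, and Gm10252 is the overlapping gene named above. The copy Ftl1-ps1, 97.3% identical over 930 bases, had 11318 counts over all libraries beside 22922 for Ftl1. Summed with it, the mean reached 153 ± 11.8 CPM (SD, n = 7) for sham libraries and 139 ± 24.1 CPM (SD, n = 5) for pMCAO libraries, with a log2 fold change of −0.15 (SE 0.16, unadjusted p = 0.346, adjusted p = 0.804).

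Tfrc (ENSMUSG00000022797) encodes transferrin receptor 1, which takes up transferrin-bound iron from the blood side, mainly in dividing crypt cells. Its position is chromosome 16 from 32608920 to 32632794 on the plus strand. The sham libraries ranged from 4.35 to 35.0 CPM with a median of 14.2, and pMCAO replicates 1 to 5 were at 15.1, 55.0, 40.6, 27.9 and 27.7. The groups overlapped between 15.1 and 35.0 CPM, sham replicates 1, 2, 4 and 6 lay below every pMCAO library, and in each block that held both groups the pMCAO libraries lay higher on average. The means were 17.3 ± 12.3 CPM (SD, n = 7) and 33.3 ± 15.1 CPM (SD, n = 5), with a log2 fold change of 1.06 (SE 0.42, unadjusted p = 0.0237, adjusted p = 0.525). With library blocks the estimate was 1.08 and the error smaller (SE 0.24, unadjusted p = 0.000382), and the adjusted p of 0.0599 missed the threshold. The differences within blocks 1, 2 and 3 were 0.93, 1.10 and 1.31. Block 1 held low levels in both groups, from 4.35 to 15.4 CPM, against 11.1 to 55.0 CPM in the other libraries. On the group alone the unadjusted p stayed under 0.05 in 8 of 12 fits that left out 1 library, and reached 0.0752 without sham replicate 6. With blocks it was called without sham replicate 5 (log2 fold change 1.36, adjusted p = 0.0299) and without pMCAO replicate 3 (1.20, adjusted p = 0.0315). The summed level of 6 proliferation markers, among them Mki67 and Top2a, was 36.04 to 162 CPM in sham (median 59.3) and 45.7 to 99.2 in pMCAO (median 73.8), with 5 of 5 tested above 0 in log2 fold change and 1 of them, Mcm2, past an unadjusted p of 0.05. Its part in the level of Tfrc was not tested.

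Epas1 (ENSMUSG00000024140) encodes HIF-2α, the oxygen- and iron-regulated subunit of HIF-2. The gene lies on chromosome 17 from 86753700 to 86833410 on the plus strand. The sham libraries ranged from 22.5 to 36.7 CPM with a median of 25.5, and pMCAO replicates 1 to 5 were at 67.9, 34.0, 32.0, 45.8 and 47.0. Replicates 1, 4 and 5 lay above every sham library, and replicates 2 and 3, both of block 2, lay within the sham range. The means were 27.95 ± 5.32 CPM (SD, n = 7) and 45.3 ± 14.3 CPM (SD, n = 5), with a log2 fold change of 0.66 (SE 0.21, unadjusted p = 0.00634, adjusted p = 0.390). With blocks it was 0.73 (SE 0.20, unadjusted p = 0.00233, adjusted p = 0.138), and the differences within blocks 1, 2 and 3 were 1.26, 0.25 and 0.87. Without pMCAO replicate 1, the highest library, the log2 fold change was 0.52 on the group alone, and in each of the 12 fits that left out 1 library the unadjusted p was at most 0.0175.

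**Figure D2:**
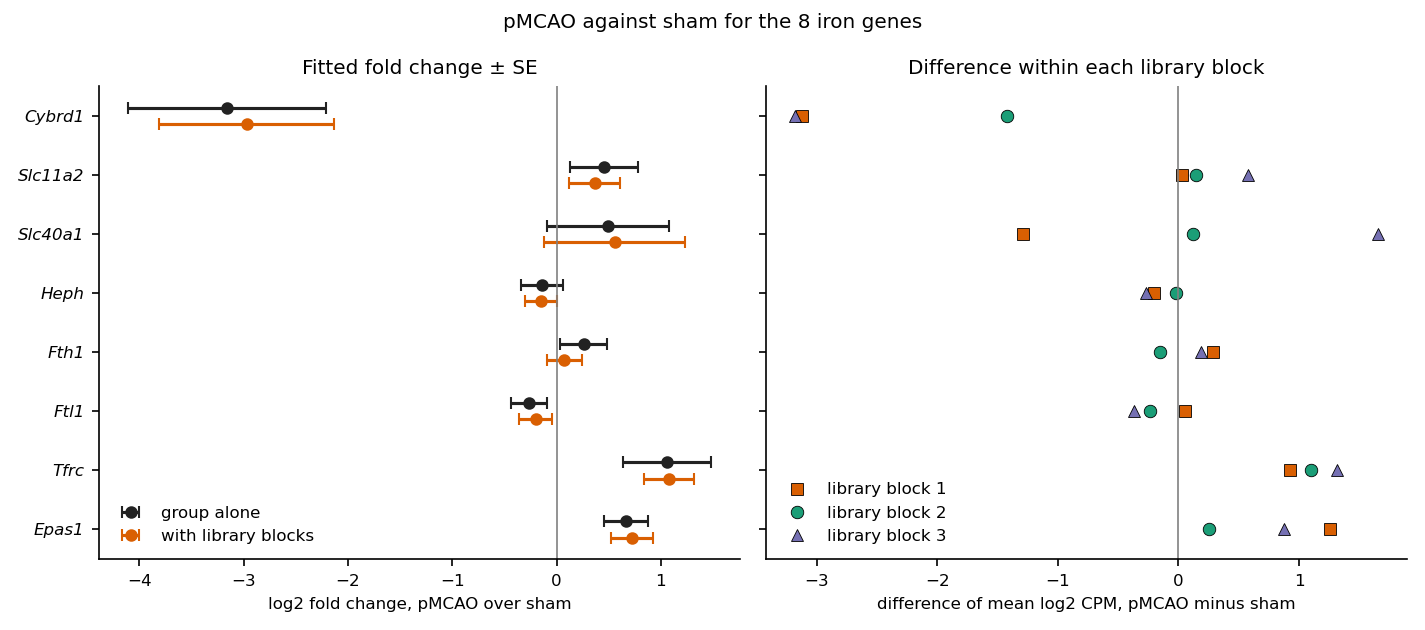
Left, log2 fold change of pMCAO over sham (x axis) for each gene with its SE, on the group alone (black) and with library blocks (orange); right, difference of mean log2 CPM within each library block that held both groups. Tfrc, Epas1 and Slc11a2 lie above 0 in blocks 1, 2 and 3, and Cybrd1 lies below 0 in all of them. Heph lies near 0, from −0.024 to −0.27 on this TMM scale, although its overall group means per length stood in the other order. Slc40a1 runs from −1.29 to 1.65.

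Across blocks 1, 2 and 3, Slc11a2, Tfrc and Epas1 were higher in pMCAO in every block (3 of 8 genes), which held for 16.9% of all genes tested. Cybrd1 was lower in every block. Heph was below 0 in every block on the TMM scale, whereas per length without TMM factors its group means stood in the other order. The share of all genes lower in every block was not computed, so these falls are not read against one. Slc40a1, Fth1 and Ftl1 changed sign between blocks. For 0 of the 8 genes did all libraries of block 1 lie below all others, a pattern that 9.40% of all genes showed, although the sham libraries of block 1 were lower than the other sham libraries by a log2 difference of −1.38 for Tfrc and −1.05 for Slc11a2. The 3 genes with a pattern match in the 5′ UTR had log2 fold changes of 0.26 (Fth1), −0.27 (Ftl1) and 0.50 (Slc40a1), and the gene with matches in the 3′ UTR had 1.06 (Tfrc). Those without a match had −3.16 (Cybrd1), 0.45 (Slc11a2), −0.14 (Heph) and 0.66 (Epas1). In bulk samples, fewer cells of a type and less RNA per cell cannot be told apart.

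The levels of the genes were compared with one another per length, as reads per base of exon, scaled to the same sum over the non-mitochondrial genes in each library. Fth1 stood at 486 ± 226 (SD, n = 12) and above 99.1% of genes, and Ftl1 at 317 ± 89.1 and above 98.4%. Heph followed at 111 ± 30.3, above 94.7% of genes. The storage and oxidation genes were thus far more abundant than the reductase and the exporter. Epas1 was at 26.8 ± 11.6, Tfrc at 18.0 ± 13.96 and Slc11a2 at 11.2 ± 6.74, the last above 58.2% of genes. Cybrd1 at 0.644 ± 0.734 and Slc40a1 at 0.520 ± 0.346 were above only 4.90% and 3.23% of genes. Ftl1 exceeded Heph, Heph exceeded Epas1 and Slc11a2 exceeded Cybrd1 in 12 of 12 libraries, whereas the order of Fth1 and Ftl1 held in 9, of Epas1 and Tfrc in 9, of Tfrc and Slc11a2 in 7 and of Cybrd1 and Slc40a1 in 6, so these neighbours were not separated beyond their spread. This scale carries no TMM factor, and on it the group means of Heph, Ftl1 and Slc40a1 stood in the other order (104 and 122 in sham and pMCAO for Heph, 308 and 330 for Ftl1, 0.442 and 0.628 for Slc40a1), so no direction between the groups is given for these 3 genes. The ratio of Fth1 to Ftl1 per length, which does not depend on the scaling, ran from 0.854 to 2.91 and was 1.26 ± 0.314 (SD, n = 7) for sham libraries and 1.83 ± 0.673 (SD, n = 5) for pMCAO libraries, with no test made. This ratio and the order of Fth1 and Ftl1 leave out the copy Ftl1-ps1, which held 11318 counts beside 22922 for Ftl1.

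Wider lists of iron genes were described by their counts. Of 96 names in 5 lists, 80 were in the table and 75 were tested. Of these, 39 had a log2 fold change above 0 and 36 below, 7 higher and 5 lower genes passed an unadjusted p of 0.05 (8.43% of all genes did), and 0 were called on the group alone. With blocks 8 higher and 7 lower genes passed (12.7% of all genes), and Ankrd37 was called. The median log2 fold change over all genes tested was 0.060 on the group alone and 0.013 with blocks.

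Of the other iron handling genes, 15 of 22 were tested, with 11 above and 4 below 0 and a median log2 fold change of 0.11. Ireb2, which encodes iron regulatory protein 2, was higher at the unadjusted threshold, going from 68.9 ± 11.9 CPM (SD, n = 7) to 115 ± 31.7 (SD, n = 5), with a log2 fold change of 0.72 (SE 0.19, unadjusted p = 0.00178, adjusted p = 0.309). With blocks it was 0.70 (unadjusted p = 0.000992, adjusted p = 0.0950), and within blocks 1, 2 and 3 it was 1.32, 0.31 and 0.62. No other gene of the list passed the unadjusted threshold. The metal importers Slc39a14 and Slc39a8 had log2 fold changes of 0.44 (unadjusted p = 0.0537) and 1.75 (unadjusted p = 0.0763). With blocks Slc39a8 was at 0.72 (unadjusted p = 0.180), and its level in block 1 was 0 to 2.91 CPM. Fbxl5, the iron-sensing ligase subunit that degrades iron regulatory protein 2, had the highest level of the list, at a mean of 112 CPM over all libraries, and a log2 fold change of 0.21 (unadjusted p = 0.399).

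Of 18 genes of haem synthesis, transport and breakdown, 15 were tested, with 8 above and 7 below 0 and a median of 0.045. Abcg2, an efflux transporter of porphyrins among other substrates and the gene with the highest level of the list, was higher at the unadjusted threshold, going from 64.02 ± 10.9 CPM (SD, n = 7) to 90.6 ± 25.3 (SD, n = 5). The fitted difference was 0.48 (SE 0.20, unadjusted p = 0.0254, adjusted p = 0.526) and 0.60 in the fit with blocks (unadjusted p = 0.00213, adjusted p = 0.132). The haem transporter Slc48a1 had a log2 fold change of 1.72 (unadjusted p = 0.0590) and the haem oxygenase Hmox2 of 0.66 (unadjusted p = 0.0650). Slc48a1 was near the floor, with means of 0.788 CPM in sham and 1.77 in pMCAO, and its difference within block 3 was −0.49.

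Of 18 names of systemic iron regulators, 10 were in the table and 8 were tested, with 5 above and 3 below 0 and a median of 0.30. Id1, a target of bone morphogenetic protein signalling, lay at 67.1 to 97.7 CPM in the sham libraries and at 110 to 154 CPM in the pMCAO libraries, so that the groups did not overlap (0.311% of all genes). Its log2 fold change was 0.52 (SE 0.16, unadjusted p = 0.00474, adjusted p = 0.378), and within blocks 1, 2 and 3 it was 0.53, 0.49 and 0.61. Tmprss6, a protease that restrains hepcidin in the liver, was near the floor in both groups at 0.226 ± 0.333 CPM (SD, n = 7) and 1.05 ± 0.602 CPM (SD, n = 5), with a log2 fold change of 2.53 (unadjusted p = 0.00729). Neo1, a co-receptor of that pathway, had −0.34 (unadjusted p = 0.0786).

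All 14 iron-sulphur cluster genes were tested, with 9 above and 5 below 0 and a median of 0.10 that was −0.060 with blocks. Nfu1, a cluster carrier, had a log2 fold change of 1.02 (unadjusted p = 0.0341, adjusted p = 0.567) at 2.39 ± 1.25 CPM (SD, n = 7) for sham libraries and 4.15 ± 2.19 CPM (SD, n = 5) for pMCAO libraries, and with blocks it was at 0.75 (unadjusted p = 0.0811). The scaffold gene Iscu had 0.51 (unadjusted p = 0.0830).

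**Figure D3:**
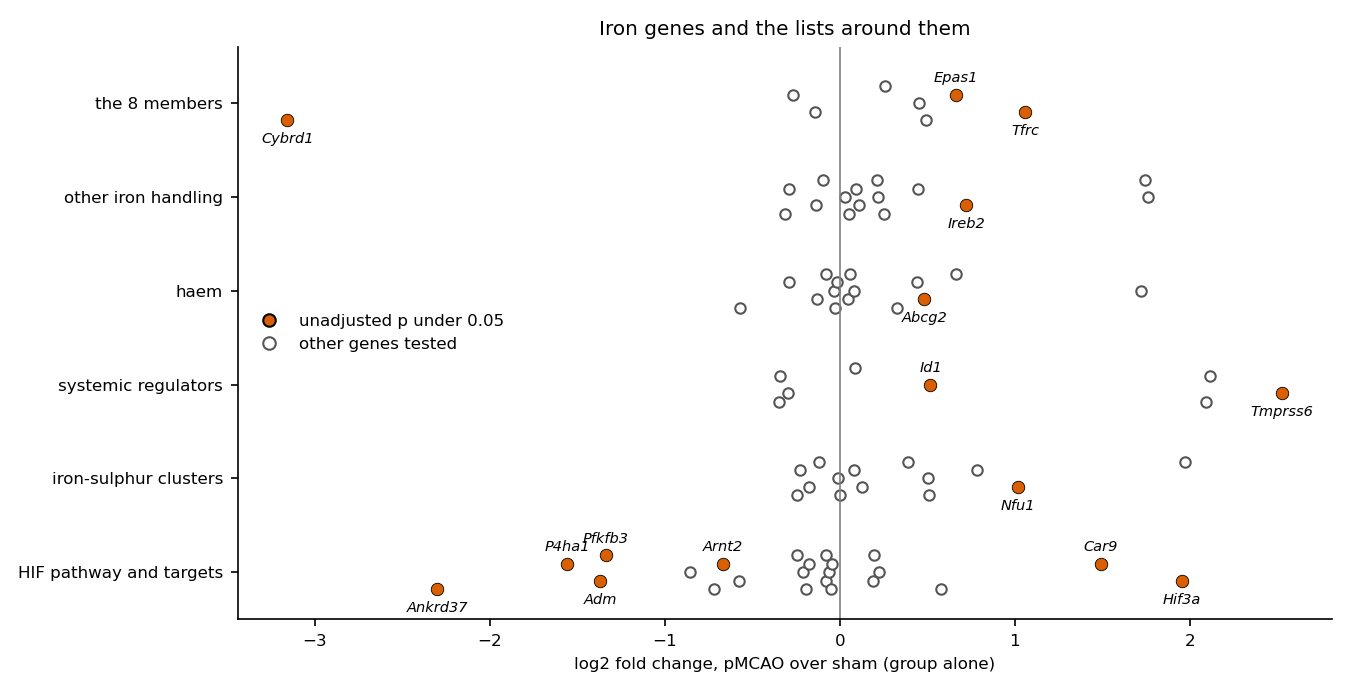
Log2 fold change of pMCAO over sham on the group alone (x axis) for the 8 genes and for the tested genes of 5 further lists (rows), a point a gene; filled points passed an unadjusted p of 0.05. In the HIF row 5 of the 7 filled points lie below 0, with Ankrd37 at −2.30, and in the other 4 lists all filled points lie above 0.

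Of 24 genes of the HIF pathway and its targets, 23 were tested, with 6 above and 17 below 0 and a median log2 fold change of −0.18 (−0.16 with blocks). Over all genes tested 55.2% lay above 0 (51.3% with blocks). At the unadjusted threshold 5 were lower and 2 higher, against 8.43% of all genes in either direction. Ankrd37, a gene induced by hypoxia, ranged from 9.25 to 59.9 CPM in sham (median 26.4) and was at 10.4, 6.69, 10.1, 4.32 and 1.28 CPM in pMCAO replicates 1 to 5. The groups overlapped only through sham replicate 7, which lay below pMCAO replicates 1 and 3. Its log2 fold change was −2.30 (SE 0.53, unadjusted p = 0.000547, adjusted p = 0.208) on the group alone and −2.28 (unadjusted p = 1.61e-05, adjusted p = 0.0137) with blocks, where it was called. The blocks had been set to bring a fit close to the authors' own comparison of these libraries, so the call is not independent of that comparison. Within blocks 1, 2 and 3 the differences were −1.84, −1.68 and −3.42. The call with blocks was lost without sham replicate 6 (adjusted p = 0.0830) and without pMCAO replicate 1 (adjusted p = 0.0738).

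P4ha1, a collagen prolyl hydroxylase, was at 7.35 ± 3.86 CPM (SD, n = 7) for sham libraries and 3.76 ± 3.08 CPM (SD, n = 5) for pMCAO libraries, with a log2 fold change of −1.56 (SE 0.43, unadjusted p = 0.00225, adjusted p = 0.322), and its difference within block 1 was 0.57. It no longer passed with edgeR (−0.99, unadjusted p = 0.0566), with the replicate block (−0.81, unadjusted p = 0.0793), or with library blocks without sham replicate 6 (−0.56, unadjusted p = 0.255). Pfkfb3, a regulator of glycolysis, was at 68.9 ± 32.9 CPM (SD, n = 7) and 27.4 ± 18.4 CPM (SD, n = 5), with −1.34 (SE 0.45, unadjusted p = 0.00883, adjusted p = 0.428) and differences of −3.72, −0.47 and −1.61 within blocks 1, 2 and 3. Without the libraries of block 1 it was −0.65 (unadjusted p = 0.112). Ldha, lactate dehydrogenase A and the gene with the highest level of the list, was at 298 CPM over all libraries with 0.23 (unadjusted p = 0.244). The remaining genes past the unadjusted threshold, named after their values were seen, were Adm at −1.37 (unadjusted p = 0.0181), Arnt2 at −0.67 (unadjusted p = 0.0439), Car9 at 1.49 (unadjusted p = 0.0172) and Hif3a at 1.96 (unadjusted p = 0.0314). With library blocks Adm was at −1.02 (unadjusted p = 0.0651) and its difference within block 2 was 0.11. Car9 was at 0.82 with edgeR (unadjusted p = 0.241) and with DESeq2 (unadjusted p = 0.220). Hif3a was low, with means of 0.968 CPM in sham and 2.60 in pMCAO, and its difference within block 1 was −0.40. Hif1a, named likewise, had −0.19 (unadjusted p = 0.461) and Vegfa −0.21 (unadjusted p = 0.499).

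**Figure D4:**
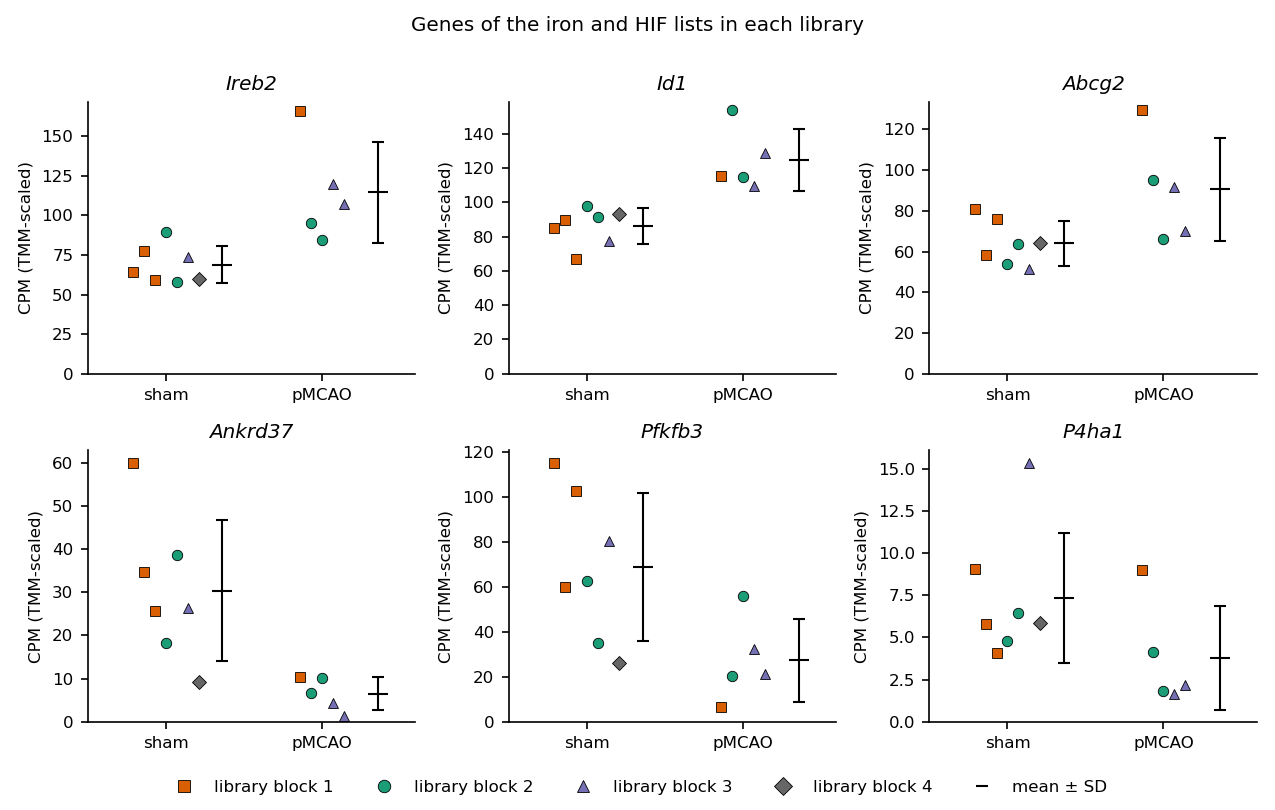
Level in TMM-scaled CPM on linear axes from 0 of 6 genes of the wider lists, with a point for each of the 7 sham and 5 pMCAO libraries, marked by library block; bars give the mean ± SD. The pMCAO libraries of Id1 (110 to 154 CPM) lie above all sham libraries (67.1 to 97.7), and those of Ankrd37 lie between 1.28 and 10.4 CPM.

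Markers of cell types and gut regions were read beside these levels. Epcam was at 1015 to 2360 CPM in sham and 883 to 2533 in pMCAO, and Cdh1 at 388 to 830 and 384 to 714. The 9 enterocyte markers summed to 13474 to 22539 CPM in sham (median 19815) and 15658 to 42858 in pMCAO (median 19180), with the highest sum in pMCAO replicate 1. Of these 9, 6 lay above 0 and 3 below, the latter being Epcam (−0.46), Krt20 (−0.33) and Cdh1 (−0.29), with a median log2 fold change of 0.11. The 3 past the unadjusted threshold (8.43% of all genes) were Sis, Slc5a1 and Fabp2, products of absorptive enterocytes, with log2 fold changes of 1.14 (unadjusted p = 0.00247), 0.92 (unadjusted p = 0.00309) and 0.92 (unadjusted p = 0.0263), and Fabp2 changed sign between blocks (2.68, 0.44 and −0.61). Sis and Slc5a1 were highest in pMCAO replicate 5 (4834 and 1366 CPM), against 1882 and 679 CPM in pMCAO replicate 1. Fabp2 and Epas1 were highest in pMCAO replicate 1. The part of these 3 markers in the level of Epas1 was not tested. Of the 5 proximal markers, Pdx1, a defining gene of the duodenum, had no row in the table used here, and the other 4 summed to 1179 to 2439 CPM in sham (median 1396) and 1476 to 2655 in pMCAO (median 2254). Gata4 was at 28.996 to 52.4 and 33.9 to 58.8 CPM, and Onecut2 at 143 to 736 and 296 to 566. These 4 all had log2 fold changes above 0, and 1 passed the unadjusted threshold on the group alone (Fabp1, 1.00, unadjusted p = 0.0470). Fabp1 did not pass with blocks (0.48, unadjusted p = 0.123). Its difference was above 0 within blocks 1 and 2 and below 0 within block 3 (−0.28). The 6 distal markers summed to 356 to 982 CPM in sham (median 733) and 569 to 1062 in pMCAO (median 715), with Fabp6 at 8.45 to 143 and 9.09 to 130 and Slc10a2 at 0.415 to 10.9 and 2.11 to 13.7. The highest level in this sum was that of Cubn (mean 550 CPM). Of 5 distal markers tested, 4 lay above 0 and 1 below. On the group alone 2 passed the unadjusted threshold, Slc51b (0.68, unadjusted p = 0.0177) and Slc51a (0.50, unadjusted p = 0.0471). With blocks 1 gene of each regional list passed (12.7% of all genes). These were Lct of the proximal list (0.28, unadjusted p = 0.0476) and Slc51b of the distal list (0.56, unadjusted p = 0.0418). Markers of both ends of the gut were thus detected in every library, and the part of the regional mix in these levels was not tested.

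Markers of cell types known for high levels of ferroportin or transferrin receptor were also summed. Slc40a1 itself had a mean of 1.27 CPM over all libraries, which was below the macrophage sum of every library. Of 9 macrophage markers 7 were present and summed to 13.3 to 42.1 CPM in sham and 8.85 to 26.4 in pMCAO, with Adgre1 at most at 2.70 CPM. In sham replicate 3, where Slc40a1 was highest, the sum was 37.6 CPM, and in sham replicate 7, where Slc40a1 was at 0.801 CPM, it was 42.1 CPM. The part of macrophages in the level of Slc40a1 was not tested. Of 8 erythroid markers 3 were present and summed to 0.922 to 25.1 CPM in sham and 1.44 to 2.82 in pMCAO, with the highest sum in sham replicate 3. Tfrc was at 15.4 CPM in that library, and the part of red cell precursors in either level was not tested. Of 8 endothelial markers 2 were present, at a summed 0.483 to 6.27 CPM in sham and 0.342 to 5.47 in pMCAO, and of 6 fibroblast markers 0 had a row. The 6 goblet markers summed to 3219 to 38052 CPM in sham and 5199 to 39738 in pMCAO. By block the sum was 3219 to 5783 CPM in block 1, which held more sham than pMCAO libraries, and 15886 to 39738 in the other libraries. All 6 had log2 fold changes above 0, with 0 past the unadjusted threshold on the group alone and 3 with blocks, namely Tff3 (0.66), Fcgbp (0.49) and Clca1 (0.52). The 6 lymphocyte markers summed to 29.2 to 502 CPM in sham and 58.02 to 355 in pMCAO, with 5 above 0 and 0 past the threshold on the group alone. With blocks 4 of these 6 were higher at the unadjusted threshold (12.7% of all genes), namely Cd8a (1.43), Cd3g (1.601), Itgae (0.94) and Gzma (0.75), and 0 reached an adjusted p of 0.05. The part of goblet cells and intraepithelial lymphocytes in the levels of the iron genes was not tested.

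The genes whose levels ran most like those of each member were found by Pearson's correlation of log2 CPM over the 12 libraries, which share their depth and block and give a description. Group means were not removed, so a difference between pMCAO and sham that genes share also enters their correlation. Tfrc ran most like Rasa3 (0.97, and 0.96 with block means removed), Anxa3 (0.93 and 0.88) and Gtpbp4 (0.92 and 0.90). Epas1 ran most like Anxa13 (0.94 and 0.96), Hpgd (0.93 and 0.94) and Clta (0.92 and 0.93). These genes followed their partners within blocks as well as across them. Cybrd1 ran most like Reep4 (0.97 and 0.96), Rfx2 (0.94 and 0.91) and Mbnl2 (0.94 and 0.97), although Cybrd1 itself rests on few counts. The closest were Vamp1 (0.94), Casp6 (0.93) and Inpp1 (0.93) for Slc11a2, Trmt5 (0.89), Trim26 (0.85) and Ap5s1 (0.84) for Slc40a1, and Mfsd8 (0.89), RP24-535M14.1 (0.87) and Gm13572 (0.87) for Heph.

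Among the 28 pairs of the 8 genes, Cybrd1 and Epas1 ran in opposite directions (−0.74 over 12 libraries, and −0.83 with block means removed). Group means were kept here too, and the log2 fold changes of Cybrd1 (−3.16) and Epas1 (0.66) were of opposite sign. Tfrc and Epas1 correlated at 0.33, and at 0.82 with block means removed. Slc11a2 and Fth1 correlated at 0.70, a value that was 0.30 with block means removed, and Fth1 and Ftl1 at −0.12, which was 0.57 with block means removed. The pairs thus depended on whether differences between blocks were kept, other than that of Cybrd1 and Epas1 among those named.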

How the data were processed

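RNA was measured in 12 libraries of EpCAM+ small-intestinal cells, each labelled as a biological replicate. According to the study's methods and processing notes, the authors removed ribosomal RNA, aligned paired-end reads to GRCm38 with STAR and assigned them to genes with featureCounts. The strand setting and annotation release are not given in the sources used here. The table deposited by the authors gave unnormalised counts, all whole numbers, for 15855 genes, and 0 sample columns were left unmatched. The deposited CPM columns, made by the authors, equalled those counts scaled by the table total for 190260 of 190260 values within 0.001 CPM, and were not used further. The authors' own comparison columns (log2 fold change, average expression, p-value and FDR) were not used.

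Counts were filtered with filterByExpr (minimum count 10), which removed 1393 genes, scaled with TMM and tested on the group alone by limma-voom, with Benjamini-Hochberg adjustment over 14462 genes (R 4.3.3 with edgeR 4.0.16 and limma 3.58.1). Correlations and within-block differences used log2 CPM with a prior count of 2. The same fit with 4 library blocks stands beside it, since the labels give no collection day. The blocks came from an earlier analysis of these data, which chose the cuts in library number that brought its fit closest to the authors' comparison, and a block is not known to be a day. No pair of libraries in a group agreed within sampling noise. Alternatives were DESeq2 (1.42.0), edgeR's quasi-likelihood test, limma-trend, other scalings, no filter, library number, a replicate block and the omission of each library. The fits were also run on simulated counts that held no differences between blocks, so that check does not cover the block structure of these libraries. Lengths, positions and transcripts came from GENCODE M21, matched by gene ID for 15776 of 15855 genes. Copies were sought with BLAST (2.17.0+). Floors of 3 counts cover counting error only, as reads lacking molecular identifiers may be copies of 1 molecule.

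The members and lists were chosen with earlier results of these data known. Named were the 8 members and, from each iron list, genes at an adjusted p of at most 0.05 in either fit, the 3 with the smallest unadjusted p and the 1 with the highest mean level. For each marker list the summed level and number present are given, with single values for a few of its genes, and for 6 members the 3 genes of highest correlation. Values of 2 genes that this rule named are not reported here.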

Additional observations from a re-analysis of the deposited data

Results flagged for a closer look

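Slc40a1, the iron exporter, stood apart in sham replicate 3, where its log2 CPM was 2.50 against −0.95 to 0.42 in the other 6 sham libraries. The gap to the nearest library was 0.602 of the group's range, above Dixon's 95% critical value of 0.568 for 7 samples. Both groups of the 8 genes were examined in this way, and chance alone flags about 1 in 20 groups. The value rests on 23 counts in the library with the lowest total (7418730).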

How the results depend on the processing

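The members' calls depended little on the processing, and those of the wider lists more. On the group alone 0 members were called other than with library number as a covariate, which gave 1 (Cybrd1, log2 fold change −3.51, adjusted p = 0.0474). With library blocks DESeq2 called 1 (Cybrd1, −3.44, adjusted p = 0.0450), and leaving out 1 library gave 0 to 1. The list genes with an unadjusted p under 0.05 numbered 12, and 7 with edgeR, 20 with library number and 23 with the replicate block. Slc40a1 reversed on the group alone to −0.23 with edgeR, −0.25 with DESeq2 and −0.19 with the replicate block, and with library blocks to −0.0030 with DESeq2 and −0.20 without sham replicate 6 (leaving out 1 library gave −0.20 to 0.99). Fth1 reversed without block 1 in a fit with library blocks (−0.0075, an alternative chosen after seeing the data), and with library blocks without pMCAO replicate 1 (−0.010) and without pMCAO replicate 3 (−0.033, the leave-one-out values running to 0.23). The causes were not tested. The replicate numbers did not pair the samples: same-numbered libraries correlated at 0.40, −0.24, −0.16, 0.16 and 0.082 for numbers 1 to 5, and only number 1 correlated best with its own. The replicate block raised the calls over all genes from 0 to 243, library number to 156, DESeq2 to 68 and limma-trend to 1, while edgeR gave 0. With library blocks the 47 calls became 21 with edgeR, 115 with DESeq2, and 4 (without sham replicate 6) to 86 (without pMCAO replicate 3) when 1 library was left out. Depth limits Cybrd1 and Slc40a1, which rest on few counts.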
